A study of Mus musculus with 9 samples.

Results

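Complement proteins and acute phase proteins are secreted factors of innate immunity, and 9 of their genes were followed in sorted PDAC cells with and without Yap. The genes were C3, Cfb, Serping1, Clu, Lcn2, Hp, Saa1, Saa3 and Rarres2, taken by symbol from the 47643 Ensembl genes of the count files. All 9 were found, and 8 had the 100 counts over all libraries that were required for testing, as did 14105 genes in all. Saa1, with fewer counts, was left out of the test. The RNA came from tamoxifen (TAM)-treated mice whose pancreas cells carry the Trp53 frt/+ allele under Pdx-Flp, together with the R26 FSF-CreER/Dual alleles. KPF mice have no floxed Yap, and 6 libraries were made from their GFP+Yap+ cells. KPYYF mice carry Yap flox/flox in addition, and 3 libraries were made from their Tm+Yap− cells of relapsed nodules. Genotype, Yap status and reporter color changed together between the groups and cannot be told apart. The gene Xist was high in all KPYYF libraries but, among KPF libraries, only in 4435, 4504h and 4504s, so it too was unevenly spread over the groups. GFP+ cells of a TAM-treated KPF mouse are those in which CreER had not switched the reporter, whereas Tm+ cells had undergone recombination. Each library bears a mouse number, and KPF libraries 4504h and 4504s share 1, so that they may not be independent animals. Otherwise the numbers differ, and p-values measure the spread between these libraries.

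As background, complement is a cascade of plasma proteins in which the central component C3 is cleaved on a surface, with factor B (Cfb) forming the protease of its alternative, self-amplifying pathway. C1 inhibitor (Serping1) blocks the proteases that start the classical and lectin pathways, and clusterin (Clu) is a chaperone that also blocks the terminal membrane attack complex. Acute phase proteins are made in excess during inflammation, mostly by liver, but also by epithelia, fibroblasts and myeloid cells, under the control of interleukin-6, interleukin-1, STAT3, NF-κB and C/EBP factors. Among them, lipocalin-2 (Lcn2) sequesters bacterial siderophores, haptoglobin (Hp) binds free hemoglobin, and the serum amyloid A proteins (Saa1, Saa3) bind lipids. Chemerin (Rarres2) is a secreted attractant of cells that bear the receptor Cmklr1.

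Reads counted on genes numbered 8264587 to 9635514 in KPF libraries and 8116539 to 8725132 in KPYYF libraries. Levels are given as CPM, counts scaled to library size with TMM factors, and a count of 0 allows up to 3 counts, or 0.292 to 0.437 CPM across libraries, for counting error only. The libraries read the 3′ ends of transcripts, so CPM were not divided by gene length and are compared here between libraries only. Yap1, the deleted gene, had 287 to 1473 counts in KPF libraries and 6, 26 and 65 counts in KPYYF libraries 4449, 4891 and 4938. Markers of the sorted cell type were present in every library. The summed level of 10 ductal epithelial markers ran from 3587 to 12049 CPM in KPF libraries, and it was lower in KPYYF libraries, at 2177 CPM in 4449, 657 CPM in 4891 and 894 CPM in 4938. Libraries stood apart by markers of other cells. KPF library 4601 had 8209 CPM of 10 macrophage markers, against at most 1405 CPM elsewhere. KPF library 4504s had the most neutrophil markers (2518 CPM) and, with KPYYF library 4449, the most acinar markers (21145 and 6671 CPM, at most 1024 CPM elsewhere). In bulk libraries, fewer cells of a type and less RNA per cell cannot be told apart.

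Fitted levels of all 8 tested genes were lower in KPYYF than in KPF libraries, and 53.3% of all genes tested had a negative log2 fold change. Clu and Rarres2 fell, with an adjusted p under 0.05 in edgeR's quasi-likelihood test, against a background of 0.794% of all genes tested that fell and 1.1% that changed in either direction. None of the 8 rose at this threshold, with edgeR or with DESeq2, and 0.305% of all genes did with edgeR. With DESeq2, 6 of the 8 were lower at this threshold, and of all 14105 genes 928 were lower and 269 higher. The edgeR calls of Clu and Rarres2 each held in 2 of the 9 fits that left out 1 library. A looser rule named in the study's methods, which used DESeq2, takes changes of over 2-fold whose unadjusted p is under 0.05. Here it was applied to the p-values of edgeR. By this looser rule, 6 of the 8 were lower (C3, Cfb, Clu, Lcn2, Saa3 and Rarres2), against 9.2% of all genes, and 0 were higher, against 4.2%. For Clu, Lcn2 and Rarres2, every KPYYF library lay below every KPF library, which was so for 5.18% of all genes tested. The median log2 fold change of the 8 genes was -2.78, and that of all genes tested was -0.07. The 9 genes together took 0.478 to 1.47% of the counts on genes in KPF libraries and 0.0647 to 0.221% in KPYYF libraries, most of it Clu (0.379 to 1.44% and 0.0441 to 0.207%).

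**Figure D1:**
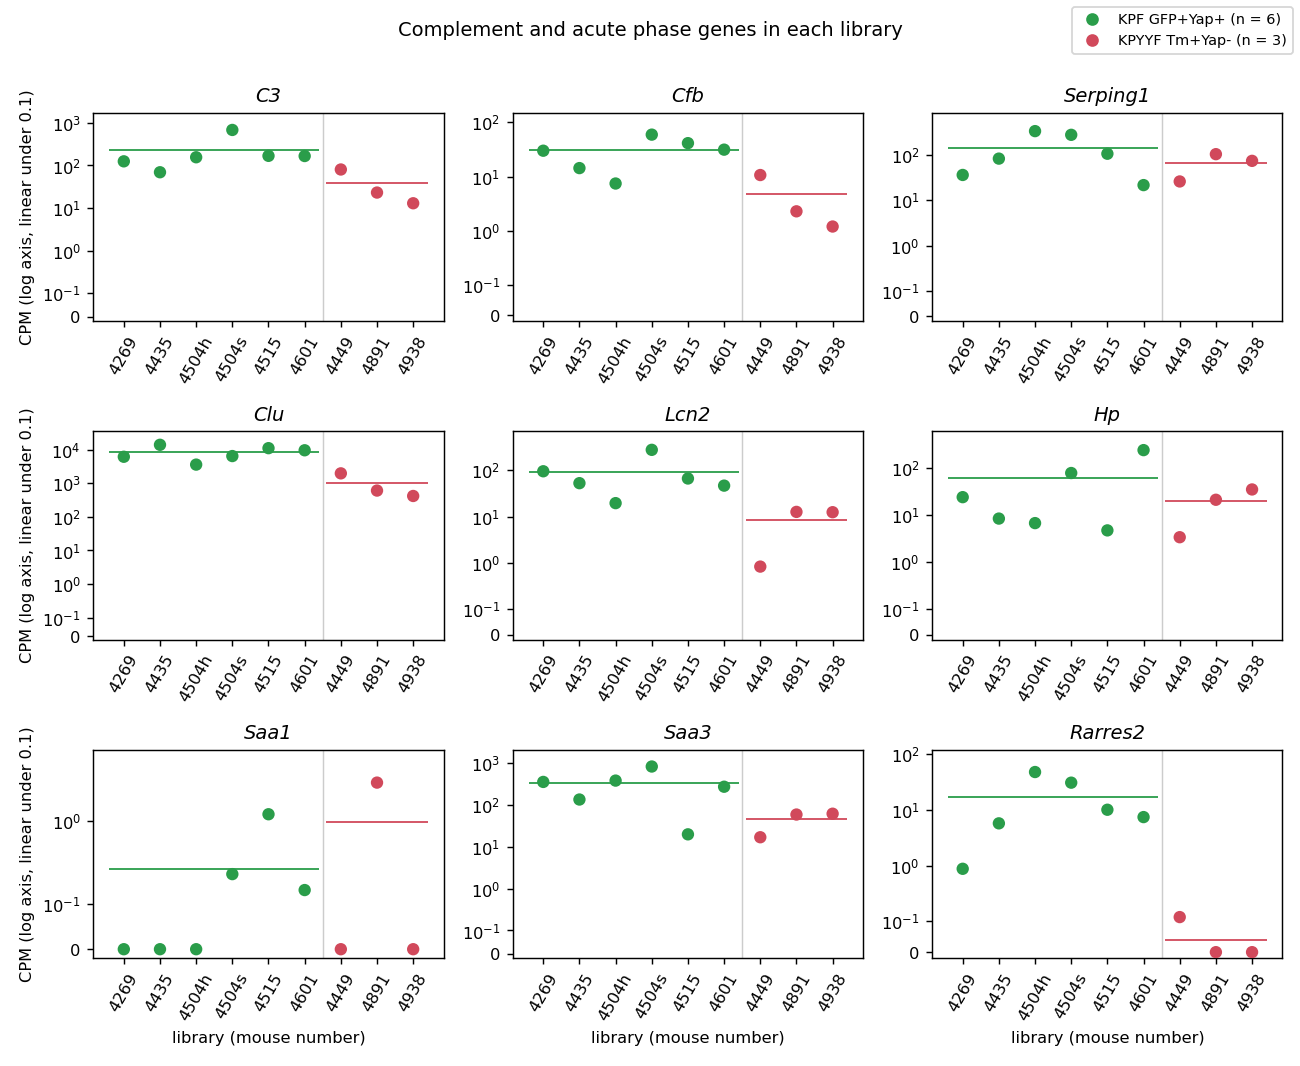
Level of each of the 9 genes in each library, as CPM on a log axis that is linear under 0.1, with points for single libraries (green, KPF GFP+Yap+, n = 6; red, KPYYF Tm+Yap−, n = 3) and lines at group means. The groups are separate for Clu, Lcn2 and Rarres2 and overlap for the other genes, and Saa1 was at 0 in 5 of the 9 libraries.

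Clu (ENSMUSG00000022037), on the plus strand of chromosome 14 from 65968483 to 65981547 (GRCm38, like all positions here), was at 3636 to 14178 CPM in the KPF libraries, with a median of 8136 CPM. It was at 1995 CPM in KPYYF library 4449, 612 CPM in 4891 and 422 CPM in 4938. The highest KPYYF library thus stayed below the lowest KPF library, 4504h. The group means were 8595 ± 3845 CPM (SD, n = 6) and 1010 ± 859 CPM (SD, n = 3), and the log2 fold change was -3.09 (SE 0.60, adjusted p = 0.0357 in the quasi-likelihood test of edgeR, where SE is the standard error). Permuting the libraries over all 84 splits into 6 and 3 (exact, two-sided, on log2 CPM) gave p = 0.0119, the smallest possible. The call held in 2 of the 9 fits that each left out 1 library, those without KPF 4504h and without KPYYF 4449, where the log2 fold change was -4.06. The adjusted p was 0.0551 to 0.121 in the other fits, without KPF 4269, 4435, 4504s, 4515 or 4601 or KPYYF 4891 or 4938. Of 10 ductal epithelial markers, 5, among them Krt18 and Cdh1, were also lower in every KPYYF library than in any KPF library (5.18% of all genes were). Krt8, Cldn4, Cldn7, Epcam (log2 fold change -1.41) and Sox9 (-0.56) overlapped between the groups. The part of these markers in the difference of Clu was not tested.

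C3 (ENSMUSG00000024164) lies on the minus strand of chromosome 17 from 57203970 to 57228136. It was at 69.3 to 683 CPM in KPF libraries, with a median of 161 CPM, and at 80.4 CPM in KPYYF library 4449, 23.1 CPM in 4891 and 12.9 CPM in 4938. The groups overlapped, since KPYYF 4449 exceeded KPF 4435, the lowest of its group. The log2 fold change was -2.56 (SE 0.84, unadjusted p = 0.0121 and adjusted p = 0.169 in edgeR's quasi-likelihood test), and the exact permutation test gave p = 0.0238. KPF library 4504s had the highest C3 level (683 CPM, against 156 CPM in 4504h, with which it shares a mouse number), and the log2 fold change was -1.81 without 4504s and -3.66 without KPYYF 4449 (adjusted p = 0.179 and 0.0893).

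Cfb (ENSMUSG00000090231), on the minus strand of chromosome 17 from 34856374 to 34862518, ranged from 7.46 to 59.2 CPM in KPF libraries, with a median of 30.7 CPM. In KPYYF libraries 4449, 4891 and 4938 it was at 10.7, 2.30 and 1.21 CPM. As for C3, KPYYF 4449 was the highest and 4938 the lowest of its group, KPF 4504s was the highest of all, and the groups overlapped, here through KPF 4504h. The log2 fold change was -2.69 (SE 0.83, unadjusted p = 0.00608, adjusted p = 0.129), with p = 0.0238 in the exact permutation test. Without KPYYF 4449, the log2 fold change was -4.12 and the adjusted p 0.0407. In GENCODE release M21, 79.5% of the exonic bases of Cfb also belong to the overlapping gene Gm20547 on the same strand, which had no count in any library. Of the 50-base stretches in the last 500 bases of Cfb transcripts, 70.9% also occur in Gm20547. Ambiguous reads were left out of the counts, but the rule for reads on shared bases is not given in the sources used here, so the level of Cfb is uncertain.

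Serping1 (ENSMUSG00000023224), on the minus strand of chromosome 2 from 84765387 to 84775444, did not separate the groups. It was at 21.4 to 329 CPM in KPF libraries, with a median of 93.3 CPM, and at 25.8 CPM in KPYYF library 4449, 103 CPM in 4891 and 73.1 CPM in 4938. All 3 KPYYF values lay within the range of KPF libraries. The log2 fold change of -1.07 had an SE of 0.85 and an adjusted p of 0.595. The order of libraries was another one than for C3, Cfb and Clu: KPF 4504h and 4504s (329 and 273 CPM) were high, KPF 4269 and 4601 (35.8 and 21.4 CPM) were low, and KPYYF 4449 was the lowest of its group. The summed level of 10 fibroblast markers was likewise highest in KPF 4504s and 4504h (5509 and 4040 CPM), lowest in KPF 4269 and 4601 (414 and 541 CPM), and 1434, 3381 and 1260 CPM in KPYYF 4449, 4891 and 4938, where 4449 was thus not the lowest as it was for Serping1. Its part in the levels of Serping1 was not tested.

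Lcn2 (ENSMUSG00000026822), on the minus strand of chromosome 2 from 32384633 to 32388252, ranged from 19.6 to 279 CPM in KPF libraries, with a median of 60.01 CPM. It was at 0.831 CPM in KPYYF library 4449, where 7 reads were counted, 12.7 CPM in 4891 and 12.5 CPM in 4938. All KPYYF libraries were thus below all KPF libraries (p = 0.0119 by exact permutation), but the log2 fold change of -3.43 had an SE of 1.03 and an adjusted p of 0.141. Without KPF 4504s, the highest library, the log2 fold change was -2.66, and without KPYYF 4449 it was -2.89 (adjusted p = 0.175 and 0.169). KPF 4504s also had the most neutrophil markers. These 10 markers summed to 101 to 2518 CPM in KPF and 24.8 to 109 CPM in KPYYF libraries, with overlap. Other KPF libraries were in another order. KPF 4601 had 1275 CPM of these markers but Lcn2 at 46.9 CPM, and 4504h had 352 CPM but the lowest Lcn2 of its group. KPF 4269 had 119 CPM of them and Lcn2 at 96.0 CPM. Of 9 neutrophil markers tested, 8 had a negative log2 fold change (53.3% of all genes did) and 0 passed the adjustment. The part of these markers in the levels of Lcn2 was not tested.

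Hp (ENSMUSG00000031722), on the minus strand of chromosome 8 from 109575128 to 109579172, varied more among KPF libraries than Lcn2 or Saa3. It was at 4.65 to 239 CPM in KPF libraries, with a median of 16.02 CPM, and at 3.32 CPM in KPYYF library 4449, 20.9 CPM in 4891 and 34.6 CPM in 4938. The high KPF values came from 4601 (239 CPM) and 4504s (77.6 CPM), the libraries with the most macrophage and the most neutrophil markers. The log2 fold change of -1.61 (SE 1.38, adjusted p = 0.633) was -0.27 without KPF 4601 and -2.30 without KPYYF 4938. With both 4504s and 4601 left out, a setting chosen after the values were seen, it was 0.89 (adjusted p = 0.701), so no direction is given for Hp.

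Saa3 (ENSMUSG00000040026), on the minus strand of chromosome 7 from 46711998 to 46715700, ranged from 19.9 to 835 CPM in KPF libraries, with a median of 316 CPM. It was at 17.0 CPM in KPYYF library 4449, 59.3 CPM in 4891 and 62.0 CPM in 4938. KPF 4515 lay among the KPYYF libraries, and the other KPF libraries, with at least 136 CPM, exceeded all of them. The log2 fold change was -2.86 (SE 0.99, unadjusted p = 0.0163, adjusted p = 0.190), and the exact permutation test gave p = 0.0833. Without KPF 4515 the adjusted p was 0.0762, and without KPF 4504s the log2 fold change was -2.30.

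Saa1 (ENSMUSG00000074115), the paralog of Saa3 on the same chromosome from 46740497 to 46742980, was near the limit of detection. In KPF libraries it had 2 counts in 4504s, 11 in 4515, 1 in 4601 and 0 in the other 3. In KPYYF libraries it had 27 counts in 4891 and 0 in 4449 and 4938. Its groups overlapped (exact permutation test, p = 0.702). Of the 50-base stretches in the last 500 bases of its transcripts, 23.7% also occur in transcripts of Saa2 or Saa3, and reads without a unique alignment were not counted. Saa2 and Saa4 had no count in any library.

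The sequences before the starts of C3 and of both Saa genes are shown because C/EBP factors are known regulators of these genes. They were taken from RefSeq's promoters on GRCm38.p6, which held 4 of the 9 genes (C3, Lcn2, Saa1 and Saa3). Capitals mark matches to TTNNGNAA on either strand, a short form of the C/EBP site, and bases inside an annotated exon were left off.
C3, chr17:57228137-57228386, minus strand: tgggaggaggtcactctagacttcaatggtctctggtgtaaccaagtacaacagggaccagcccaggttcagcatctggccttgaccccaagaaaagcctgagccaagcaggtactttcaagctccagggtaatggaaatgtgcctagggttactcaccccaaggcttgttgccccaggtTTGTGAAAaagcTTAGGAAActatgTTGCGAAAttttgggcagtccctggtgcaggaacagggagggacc
Saa3, chr7:46715701-46715926, minus strand: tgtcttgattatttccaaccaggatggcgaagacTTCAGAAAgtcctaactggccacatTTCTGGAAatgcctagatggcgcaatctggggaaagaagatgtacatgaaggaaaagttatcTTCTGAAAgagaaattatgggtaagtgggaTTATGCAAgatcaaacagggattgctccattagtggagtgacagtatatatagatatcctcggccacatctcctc
Saa1, chr7:46742981-46743230, minus strand: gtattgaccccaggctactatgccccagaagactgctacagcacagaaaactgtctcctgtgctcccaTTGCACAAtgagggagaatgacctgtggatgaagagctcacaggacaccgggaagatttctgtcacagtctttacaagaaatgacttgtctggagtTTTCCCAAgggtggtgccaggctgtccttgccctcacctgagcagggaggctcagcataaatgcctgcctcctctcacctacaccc
C3 held 3 such matches, clustered in a short stretch, Saa3 held 4 and Saa1 held 2, and Lcn2 (not shown, since its window overlaps annotated exons) held 1, each searched over 250 bases. The motif was in 36.9% of the 27025 promoters of this length, so its presence is common. Neither the STAT motif TTCNNNGAA nor the NF-κB consensus nor the TEAD motif GGAATG, bound by the DNA-binding partners of Yap, was found in these 4 windows on either strand, and 7.18%, 7.01% and 12.6% of all promoters held them.

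Rarres2 (ENSMUSG00000009281), on the minus strand of chromosome 6 from 48569696 to 48572789, was all but uncounted in Tm+Yap− cells. It had 9 to 469 counts in KPF libraries (0.875 to 47.9 CPM, median 8.75 CPM), and 1 count in KPYYF library 4449 and 0 in 4891 and 4938. No KPYYF library reached the lowest KPF library (p = 0.0119 by exact permutation). Over all reads of a group, 947 counts stood against 1, a ratio of 464 with a 95% interval of 83.0 to 18338 (exact binomial, counting error only). Of the 947 counts, 469 came from KPF 4504h and 271 from KPF 4504s, which share a mouse number. The log2 fold change was -8.37 (SE 1.65, adjusted p = 0.0351 with edgeR), whose size depends on how the single count is modeled. The call held in 2 of the 9 fits that each left out 1 library, those without KPF 4269 or 4601. Without KPF 4435, 4504h, 4504s or 4515 or KPYYF 4449, 4891 or 4938, the adjusted p was 0.0569 to 0.121, and without KPYYF 4449 the log2 fold change was -10.29. The call of Rarres2 was also lost when 4504h and 4504s were summed into 1 library. Of the exonic bases of Rarres2, 33.6% are overlapped by Lrrc61 on the opposite strand, and whether counting used the strand is not given in the sources used here.

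Among KPF libraries, Rarres2 was highest in 4504h (47.9 CPM) and 4504s (30.9 CPM), and lowest in 4269 (0.875 CPM). Mesothelial cells, which line the pancreas, express Rarres2, and most markers of these cells were lower in KPYYF libraries. Of 7 mesothelial markers, 6 were tested and 5 had a negative log2 fold change, against 53.3% of all genes. Upk1b alone fell (log2 fold change -7.79, adjusted p = 0.0277 with edgeR), against 0.794% of all genes. Msln, Upk3b and Upk1b were lower without overlap between the groups, against 5.18% of all genes. Wt1 and Lrrn4 overlapped, and Krt14 had a log2 fold change of 0.24. The summed level of the list was 368 to 2754 CPM in KPF libraries, 170 CPM in KPYYF 4449, 211 CPM in 4891 and 49.2 CPM in 4938, without overlap and mostly Msln, which pancreatic tumor cells also express. Among KPF libraries, the sum was highest in 4515 (2754 CPM), where Rarres2 was at 10.1 CPM, and it was 586 CPM in 4504h. Single markers differed in this. Wt1, Upk3b and Lrrn4 were highest in 4504h and 4504s, as Rarres2 was. Wt1 was at 69.2 and 85.3 CPM there, against at most 16.9 CPM in other KPF libraries. Upk1b was at 19.6 CPM in 4504h and 18.5 CPM in 4435. Msln was highest in 4515 and Krt14 in 4601. Upk1b had no count in KPYYF 4449 and 4938, and Upk3b had none in 4891 and 4938. The part of these markers in the difference of Rarres2 was not tested.

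**Figure D2:**
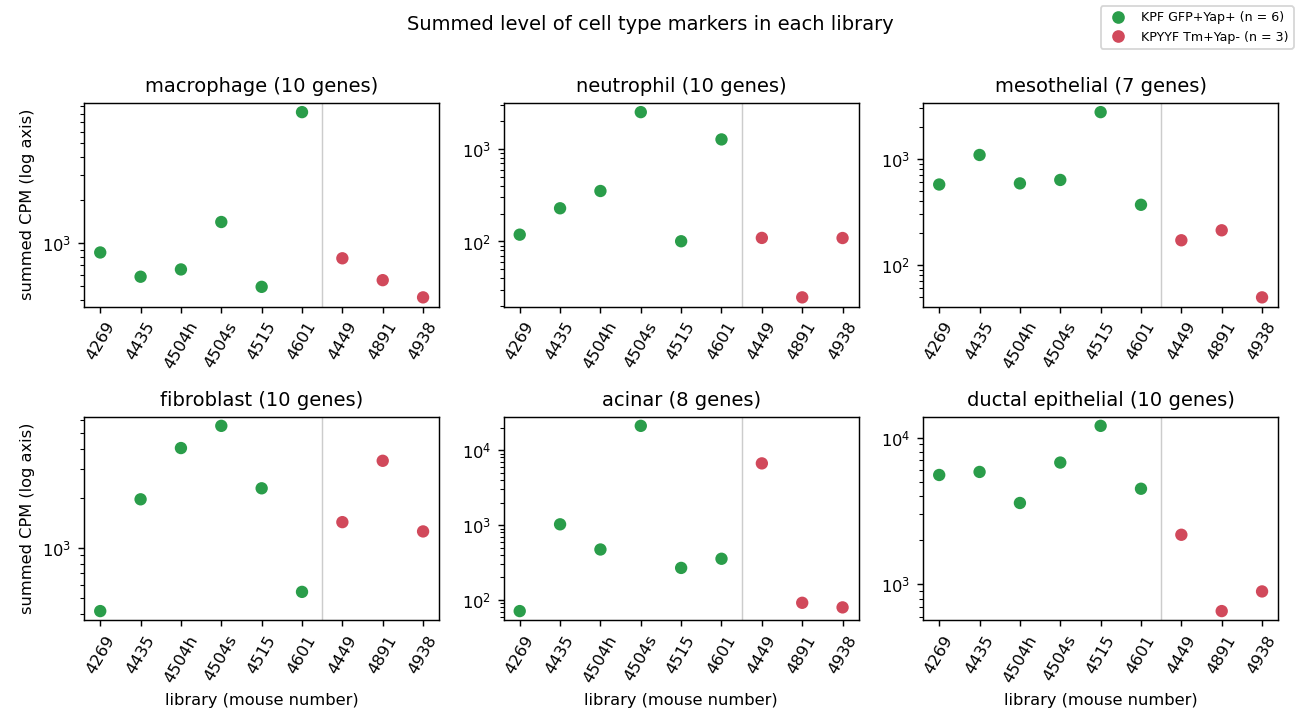
Summed CPM of the markers of 6 cell types in each library on a log axis (green, KPF GFP+Yap+, n = 6; red, KPYYF Tm+Yap−, n = 3). The ductal epithelial and mesothelial sums are lower in all 3 KPYYF libraries than in any KPF library, macrophage markers peak at 8209 CPM in KPF 4601, and acinar markers peak in KPF 4504s and KPYYF 4449.

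The 9 genes did not vary together within a group. Within the KPYYF group, library 4449 had the highest C3, Cfb and Clu and the lowest Serping1, Lcn2, Hp and Saa3. In that library, Clu was 4.73 times its level in 4938 and C3 was 6.22 times, whereas Lcn2 was at 0.831 CPM against 12.5 CPM. Library 4449 also had more ductal epithelial markers (2177 CPM) than 4891 and 4938. Within the KPF group, 4504s had the highest C3, Cfb, Lcn2 and Saa3, 4504h the highest Serping1 and Rarres2, 4435 the highest Clu and 4601 the highest Hp. From lowest to highest KPF library, levels differed 3.90-fold for Clu, 7.94-fold for Cfb, 9.86-fold for C3, 14.2-fold for Lcn2, 15.4-fold for Serping1, 41.9-fold for Saa3, 51.3-fold for Hp and 54.8-fold for Rarres2.

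The rest of the complement system, with receptors of chemerin, was followed in 4 hand-written lists of 53 genes, 30 of which were tested. Of these, 29 had a negative log2 fold change, against 53.3% of all genes. The median was -2.24, against -0.07 for all genes tested, and 1 fell with an adjusted p under 0.05, against 0.794% of all genes. For 3 of the 30, every KPYYF library lay below every KPF library, against 5.18% of all genes. By the looser rule, 9 of the 30 were lower and 0 higher, against 9.2% and 4.2% of all genes. These values include KPF library 4601, which had the most macrophage markers. The 20 genes that start the cascade summed to 3512 CPM in 4601. Their KPF median was 191 CPM, and KPYYF libraries had 123 to 233 CPM. The part of library 4601 in the 29 negative signs was not tested. The gene that fell was Cpn1, the catalytic subunit of carboxypeptidase N, which inactivates the anaphylatoxins that C3 and C5 release. Cpn1 had 20 to 187 counts in every KPF library and no count in the 3 KPYYF libraries (adjusted p = 0.0246). Set against 3 counts in each KPYYF library, the KPF mean of 10.9 CPM was at least 32.4-fold higher, for counting error only. Single KPF libraries ran from 2.04 CPM (4504h) to 21.3 CPM (4504s). The call of Cpn1 held in 4 of the 9 fits that left out 1 library, and was lost without KPF 4435, 4504s or 4515 or KPYYF 4891 or 4938 (adjusted p up to 0.0718).

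Of 20 genes that start the cascade, 12 were tested and 0 passed the adjustment. By the looser rule, 3 of the 12 were lower, against 9.2% of all genes. C4b encodes the component that C1 cleaves. It was at 43.5 to 298 CPM in KPF libraries and 3.92, 29.0 and 11.9 CPM in KPYYF libraries 4449, 4891 and 4938, without overlap (log2 fold change -2.93, SE 0.82, adjusted p = 0.118). Without KPF 4504s it was -2.33, and without KPYYF 4891 it was -3.84. Its near-identical neighbor C4a makes its counts uncertain. Fcna, a ficolin of macrophages that starts the lectin pathway, had a log2 fold change of -3.65 (adjusted p = 0.174) and was highest in the macrophage-rich KPF library 4601, at 201 CPM. It was -2.34 without KPF 4601 and -1.79 without both 4504s and 4601. Properdin (Cfp), which stabilizes the protease of C3 and Cfb, had a log2 fold change of -0.74 that turned to 1.18 without KPF 4601, and C1s1, a protease of C1, had -0.63 (adjusted p = 0.826, 0.295 and 0.828). Without KPYYF 4449, the value of C1s1 was -1.87. No gene of the 7 of the membrane attack complex had enough counts for a test, and 3 of them had none at all.

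Of 14 complement regulators, 7 were tested, and all 7 had a negative log2 fold change, against 53.3% of all genes. By the looser rule, 2 of the 7 were lower, against 9.2% of all genes. Cfi, the protease that degrades active C3, was at 26.7 to 126 CPM in KPF libraries and 17.0, 0 and 0.329 CPM in KPYYF 4449, 4891 and 4938, without overlap. Of all genes tested, 5.18% were likewise lower without overlap. The log2 fold change of Cfi was -3.11 (SE 1.40, adjusted p = 0.315), and without KPYYF 4449 it was -8.13 with an adjusted p of 0.0120, against -2.53 without KPYYF 4891. Cd59a, a membrane protein that blocks the attack complex, was at 8.16 to 37.9 CPM in KPF and 0, 12.2 and 0.110 CPM in KPYYF libraries (log2 fold change -2.42, adjusted p = 0.413, or -8.30 with an adjusted p of 0.0333 without KPYYF 4891). Cr1l (Crry), which protects mouse cells from C3 deposition, had a log2 fold change of -0.68 (adjusted p = 0.525).

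Of 12 receptors for complement fragments and chemerin, 11 were tested, all 11 had a negative log2 fold change and 0 passed the adjustment, with 4 lower by the looser rule (53.3% of all genes were negative and 9.2% lower by that rule). The list summed to 1177 CPM in the macrophage-rich KPF library 4601 and to 54.0 to 184 CPM in the other libraries. C5ar1, the C5a receptor, had 96.5 CPM in 4601 and at most 9.22 CPM elsewhere (log2 fold change -4.34, adjusted p = 0.191, or -2.43 without 4601 and -5.13 without KPYYF 4891). Ccrl2 and Cmklr1, which bind chemerin, had 184 and 117 CPM in 4601, at most 19.5 and 18.2 CPM elsewhere, and their log2 fold changes were -2.91 (adjusted p = 0.276) and -1.60 (adjusted p = 0.536). Without 4601 they were -1.20 and -0.17, and with both 4504s and 4601 left out, that of Cmklr1 was 0.12. Cd93, an endothelial and myeloid receptor, had -1.01 (adjusted p = 0.627), or -0.24 without KPF 4601 and -1.68 without KPYYF 4938.

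Of 32 other acute phase genes, 17 were tested, 16 with a negative log2 fold change (median -1.65), 6 lower by the looser rule and 0 past the adjustment (53.3% of all genes were negative and 9.2% lower by the looser rule). Lbp, the lipopolysaccharide-binding protein, was at 21.2 to 155 CPM in KPF libraries and 10.6, 11.3 and 2.19 CPM in KPYYF libraries 4449, 4891 and 4938. All KPYYF values were below the lowest KPF value, as for 5.18% of all genes tested, with a log2 fold change of -3.25 (SE 0.73, adjusted p = 0.0556, or 0.0323 without KPF 4504h). Lrg1, a leucine-rich glycoprotein, had a log2 fold change of -2.49 (adjusted p = 0.150), or -3.09 without KPYYF 4449. Ceruloplasmin (Cp), the copper-carrying ferroxidase, was at 39.1 to 565 CPM in KPF and 71.7 to 309 CPM in KPYYF libraries, with a log2 fold change of -0.41 (adjusted p = 0.854), or 0.20 without KPF 4269 and -1.38 without KPYYF 4449. The metallothionein Mt2 had -0.57 (adjusted p = 0.568). Fga, Fgg and Hamp, fibrinogen and hepcidin genes of hepatocytes, had no count in any library, Fgb had 98 counts in KPF 4269 alone, and the hepatocyte marker Alb had at most 0.820 CPM. The 10 hepatocyte markers summed to between 178 and 1463 CPM in the KPF group and between 29.2 and 62.3 CPM in the KPYYF group, without overlap. Of these, 6 of 6 tested had a negative log2 fold change (53.3% of all genes were negative), and 0 passed the adjustment. By the looser rule 2 were lower, and 2 were lower without overlap between the groups (9.2% and 5.18% of all genes). Most of the sum was transferrin (Trf, 152 to 1443 CPM in KPF libraries, log2 fold change -3.60) and transthyretin (Ttr, 3.37 to 258 CPM, log2 fold change -6.15), which did not overlap between the groups (adjusted p = 0.0817 and 0.112). KPF 4269 had the most Ttr, Apoa1 (48.1 CPM) and Serpina1c (13.7 CPM, no count elsewhere). The part of these markers in the levels of acute phase genes was not tested.

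A list of acute phase inducers held 35 cytokines, receptors and transcription factors. Of 32 tested, 22 had a negative and 10 a positive log2 fold change (53.3% of all genes were negative), with a median of -0.27, and 0 passed the adjustment. By the looser rule, 4 of the 32 were lower (9.2% of all genes were) and 2 were higher (4.2% of all genes were), shares near the background. The 2 higher ones were Il1rap, the co-receptor of interleukin-1, and Cebpd, an acute phase transcription factor. Il1rap was at 0.195 to 11.4 CPM in KPF and 14.4 to 36.3 CPM in KPYYF libraries, without overlap (log2 fold change 2.21, SE 0.91, adjusted p = 0.246). Cebpd was at 34.2 to 109 CPM in KPF and 63.1, 263 and 48.5 CPM in KPYYF libraries 4449, 4891 and 4938. Its log2 fold change of 1.16 (adjusted p = 0.277) was 0.00 without KPYYF 4891. Il1b had a log2 fold change of -3.48 and Osm, a cytokine of the interleukin-6 family, -2.18 (adjusted p = 0.401 and 0.525), with 2975 and 363 CPM in KPF 4601 and at most 144 and 56.3 CPM elsewhere. Without KPF 4601, their log2 fold changes were -0.78 and -0.41, and without KPYYF 4449 that of Osm was -3.16.

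Among 6 genes listed by hand as receptors of Lcn2, Hp and Saa proteins, 3 had a negative and 3 a positive log2 fold change (53.3% of all genes were negative). Of these, 0 passed the adjustment or the looser rule. The hemoglobin scavenger receptor Cd163, of macrophages, had 117 CPM in KPF 4601 and at most 12.2 CPM elsewhere, with a log2 fold change of -1.82 (adjusted p = 0.707) that was 0.65 without KPF 4601 and -2.64 without KPYYF 4938. Scarb1, a lipoprotein receptor that takes up SAA, had 0.52 (adjusted p = 0.522) and Lrp8, whose place in this list is uncertain, 0.89 (adjusted p = 0.704).

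**Figure D3:**
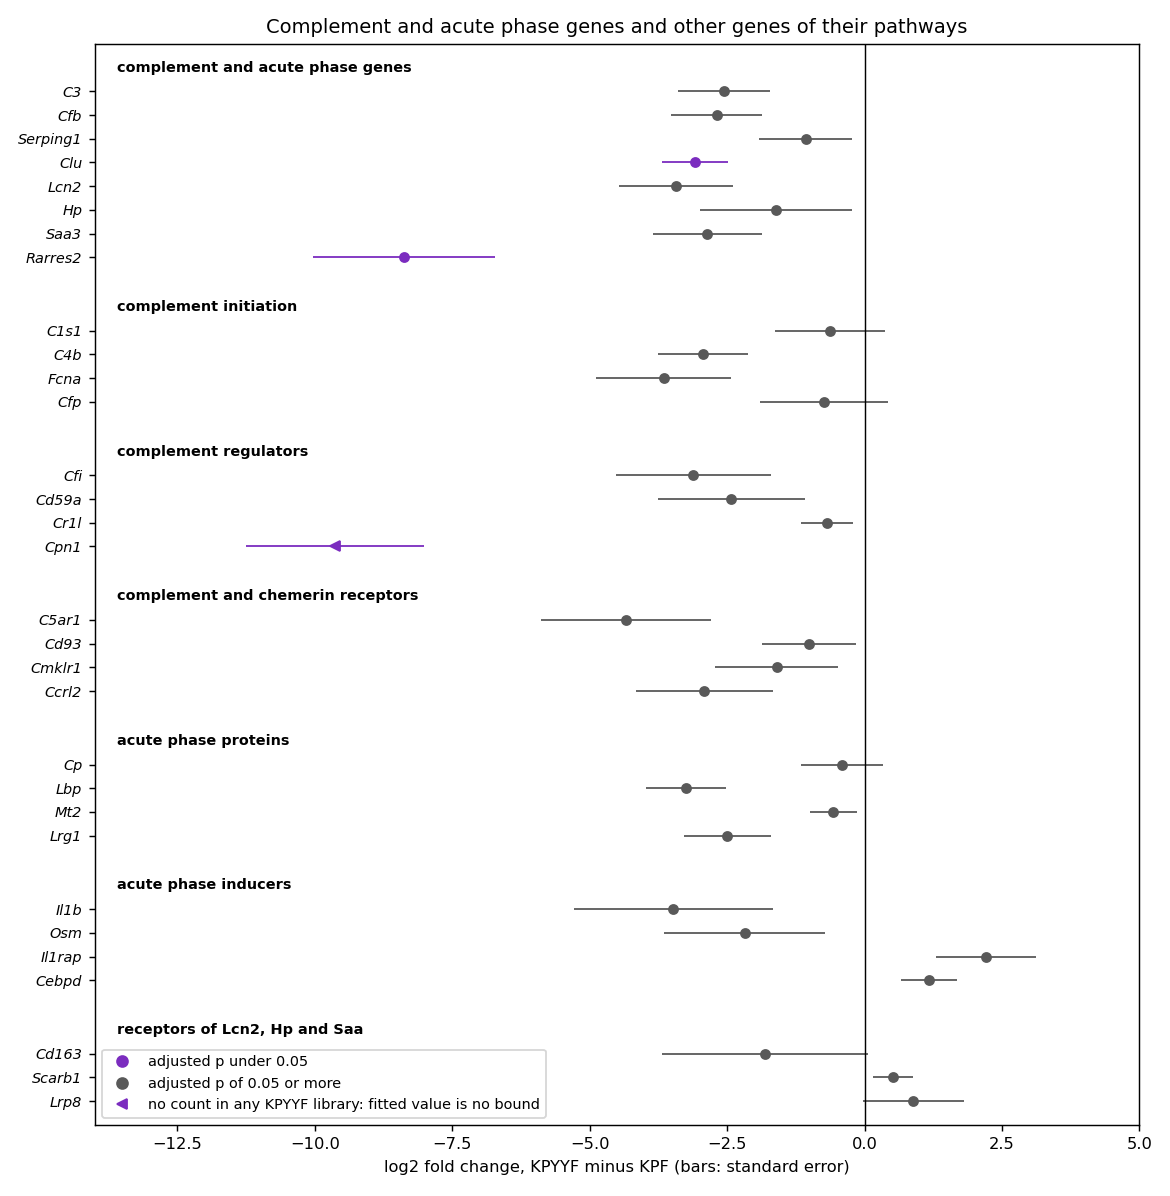
Log2 fold change (KPYYF minus KPF, horizontal axis) of 8 of the 9 genes and of 23 other genes of their pathways. Bars show the standard error derived from the F statistic of edgeR's quasi-likelihood test on 6 and 3 libraries. Clu, Rarres2 and Cpn1, in purple, have an adjusted p under 0.05; Cpn1 had no count in KPYYF libraries, and its fitted value is no bound.

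Genes whose profile over the 9 libraries was most like that of each gene were ranked by the root mean square difference of centered log2 CPM among 8889 genes with a mean of at least 10 CPM, as a description without a test. For Clu these were Cldn2, a tight junction claudin (difference 0.37, against an SD of 1.73 of Clu itself), and Crip2 (0.40). For Cfb they were Prom1, the CD133 surface protein of epithelial and stem cells (0.42), and Spint2, an epithelial protease inhibitor (0.55), and for C3 they were Pla2g16 (0.71) and Cfb (0.73). Serping1 ran closest to the matrix gene Sparc (0.49) and to Lhfp (0.51), and Hp to the myeloid genes Ccr1 (0.59) and Msr1 (0.77), a chemokine receptor and a scavenger receptor. For Rarres2 they were Adam19 (0.87) and Adamtsl1 (1.01), for Lcn2 Cxcl12 (0.89) and Ajuba (0.90), and for Saa3 Mthfsd (1.03) and Tenm4 (1.06), with SDs of 2.86, 2.17 and 1.86 of the genes themselves. Cfb, for C3, was the only one of the 9 genes among the nearest genes ranked here. For Saa1, with few counts, the nearest genes were Cirbp (0.70) and Ehbp1 (0.80).

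**Figure D4:**
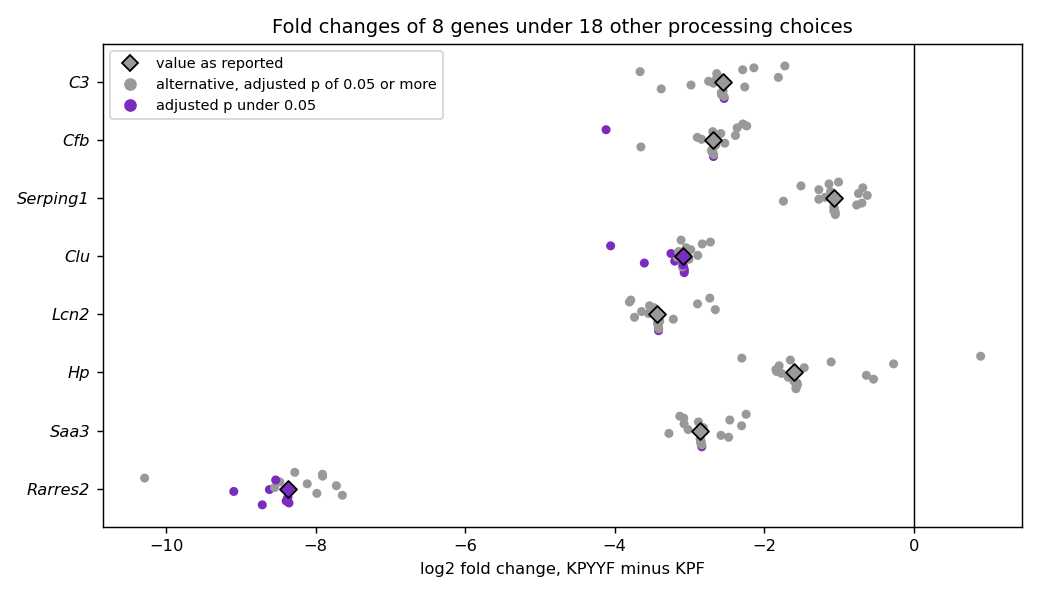
Log2 fold change (KPYYF minus KPF, horizontal axis) of the 8 tested genes as reported (diamonds) and under 18 other processing choices (points), with purple for an adjusted p under 0.05. All values but 1 of Hp (0.89, without KPF libraries 4504s and 4601) are negative, and Clu and Rarres2 each pass in 8 of the 18.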

How the data were processed

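Per the labels, RNA of FACS-sorted cells was made into 3′ end libraries (Lexogen QuantSeq Forward), and the submitters' processing notes name STAR, HTSeq and mm10. The authors deposited raw counts per Ensembl gene, 1 file per library, without normalization. The annotation, versions and strand setting are not given in the sources used here. The methods section describes BeadChip hybridization instead, although the files hold whole read counts. Reads without a unique alignment (43.8 to 53.4% of the listed reads), on no feature (8.63 to 15.96%) or ambiguous (0.231 to 0.312%) were left out.

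Symbols and positions are from GENCODE M21. Genes with at least 100 counts in all were compared with edgeR 4.0.16's quasi-likelihood test (TMM, robust, no covariates; R 4.3.3), two-sided, with Benjamini-Hochberg adjustment over 14105 genes and a threshold of 0.05. The common biological coefficient of variation was 0.825. Log2 CPM used a prior count of 2. Alternatives were DESeq2 1.42.0, limma-voom (limma 3.58.1), RLE and upper quartile scaling, other filters, merged or omitted libraries, and the 6 libraries from mice with high Xist (KPF 4435, 4504h and 4504s with all KPYYF). Tools were tested on simulated counts. Figures used matplotlib 3.10.9.

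The 9 genes and all lists were chosen with earlier results of these data known. Named were the 9 genes, list genes past the adjusted threshold, and per list the 2 highest and 2 lowest log2 fold changes at a mean of at least 10 CPM. Also named, per gene of the 9, were the 2 with the nearest profile. Other genes named (Saa2, Saa4, Fga, Fgb, Fgg, Hamp and single cell type markers) were chosen after their values were seen. A gene that the rule names and an allele that all groups share are not reported here.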

Additional observations from a re-analysis of the deposited data

Results flagged for a closer look

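Among the KPF libraries, 4 of the 32 genes examined had a library far from the others on the log2 CPM scale, by Dixon's test for 6 samples, which flags about 1 in 20 groups by chance. In KPF 4601, the library with the most macrophage markers, Cfp was at 231 CPM (next 24.9 CPM in 4504s), Cd93 at 165 CPM (next 43.97 CPM in 4504s) and Il1b at 2975 CPM (next 144 CPM in 4435). In KPF 4269, Cebpd was at 109 CPM (next 52.1 CPM in 4435). None of the 9 complement and acute phase genes was among them.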

How the results depend on the processing

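Of 144 fold changes of the 8 tested genes under alternatives, 118 kept their direction and side of the threshold, 20 lost and 5 gained an adjusted p under 0.05, and 1 reversed (Hp, 0.89 without KPF libraries 4504s and 4601). Clu and Rarres2 as the genes that fell became 6 genes with DESeq2 and 1 with no filter on low counts, limma-voom, 4504h and 4504s summed, or the 6 libraries with high Xist, and 0 without both 4504s and 4601, a setting chosen after seeing the data. With 1 library left out they were 0 to 2. By unadjusted p and fold, 5 to 6 of the 8 genes were lower with 1 library left out (9.2% of all genes were in the fit of all 9 libraries). Over all genes, 269 were higher and 928 lower with DESeq2, 88 and 219 without a filter, 6 and 31 in the high Xist libraries, and 11 and 56 without 4504s and 4601, with 25 higher when 4504h and 4504s were summed and 44 lower with limma-voom (43 and 112 as reported). Leaving out 1 library gave 6 to 75 higher and 13 to 198 lower. Complement genes called were 4 of 30 tested with DESeq2, 0 with limma-voom, in the high Xist libraries or without 4504s and 4601, and 0 to 2 with 1 library left out. Acute phase genes called, among 17 acute phase and 6 receptor genes tested, were 5 with DESeq2. They were 1 without a filter or with the summed libraries, and 0 to 1 with 1 library left out. Of 32 inducers tested, 1 was called with DESeq2. The DESeq2 counts stand against 269 genes higher and 928 lower of 14105, a larger background than the 43 and 112 as reported. The cause of these moves was not tested. Over all alternatives, the adjusted p ranged from 1.94e-07 to 0.173 for Clu, 3.32e-06 to 0.286 for Rarres2 and 3.13e-07 to 0.156 for Cpn1.

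Other reversals were of genes that did not pass the test. Cfp had 0.18 with limma-voom, 0.90 in the high Xist libraries, 1.18 without KPF 4601 and 1.57 without 4504s and 4601, and Cd163 had 0.73, 0.41, 0.65 and 1.58. Without 4504s and 4601, Cmklr1 had 0.12 and Osm 0.23. Mt2 (0.0048) and Cp (0.67) turned in the high Xist libraries, and Cp (0.20) without KPF 4269. The mean log2 CPM of Hp was 0.28 higher in KPYYF libraries without 4449, and that of Saa1 differed by -0.74 without 4891. No paired analysis was possible because the labels give mouse numbers that no KPF and KPYYF library shares. With 1 library left out, Cfp ranged from -1.19 to 1.18, Cp from -1.38 to 0.20, Cd163 from -2.64 to 0.65, and the mean difference of Hp from -1.37 to 0.28 and of Saa1 from -0.74 to 1.18. At these depths, a count of 0 leaves levels of up to 0.292 to 0.437 CPM possible.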
